A study of Mus musculus with 36 samples.

Results

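Paneth cells and goblet cells are both secretory cells of the small intestine, and their miRNAs are set against each other here. Small RNA was sequenced from cells sorted by FACS (fluorescence-activated cell sorting) out of mouse small intestine of strain C57BL6/2J, without a stated genotype change or treatment. The comparison takes 6 Paneth libraries (Paneth 1 to 6) and 4 goblet libraries (Goblet 1 to 4), chosen by their labelled population, which is 10 of the 31 small RNA libraries with values and of the 36 samples of the series. The labels give neither the sort markers and age of these animals nor whether replicates came from separate animals. The p-values therefore rest on the spread between libraries, which may be technical. For single entries this is the spread within populations over all 31 small RNA libraries, and for ratios that of the 10 libraries alone. The table lists miRNAs and no mRNA, so the defining mRNAs of the sorted cells, such as the lysozyme of Paneth cells and the mucin of goblet cells, could not be checked.

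As background, a miRNA is a short RNA cut from a hairpin precursor by Drosha and Dicer and loaded into an Argonaute protein. It pairs with target mRNAs mainly through its seed, the bases 2 to 8 from its 5′ end, and lowers their translation and stability, so miRNAs with 1 seed share many targets. The strand from the 5′ side of the hairpin is named 5p and the strand from the 3′ side 3p. Paneth cells sit at the crypt base beside the stem cells and release antimicrobial peptides and niche signals. Goblet cells are found in crypts and villi and release mucus, and both arise from secretory progenitors. Among the miRNAs best known as abundant in intestinal epithelium are miR-215, miR-192 and miR-194.

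The miRNAs on which the comparison turns are printed first, from RefSeq on build GRCm38.p6, with the seed in capitals. The first set shares a seed and holds the miRNA with the largest rise in Paneth cells, miR-152-3p (chromosome 11, 96850439 to 96850459, plus strand, in an intron of Copz2). With it are miR-148a-3p (chromosome 6, 51269829 to 51269850, minus strand, in no annotated host gene) and miR-148b-3p (chromosome 15, 103285185 to 103285206, plus strand, in an intron of Copz1).
miR-152-3p: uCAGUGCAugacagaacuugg
miR-148a-3p: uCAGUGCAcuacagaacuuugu
miR-148b-3p: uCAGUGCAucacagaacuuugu

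The second set is the intestinal group, whose genes form a pair of loci. miR-194-1 (5p at 185313325 to 185313346, 3p at 185313360 to 185313381) and miR-215 (5p at 185313610 to 185313630) lie together on the plus strand of chromosome 1, within the antisense transcript 2010103J01Rik. miR-194-2 (5p at 6264658 to 6264679, 3p at 6264694 to 6264715) and miR-192 (5p at 6264857 to 6264877) lie together on the plus strand of chromosome 19. miR-215-5p and miR-192-5p share a seed, the 5p strands of both miR-194 genes are identical, and their 3p strands differ, which is why both 3p strands are shown.
miR-215-5p: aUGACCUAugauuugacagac
miR-192-5p: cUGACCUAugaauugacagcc
miR-194-1-5p: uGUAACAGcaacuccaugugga
miR-194-2-5p: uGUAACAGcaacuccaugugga
miR-194-1-3p: cCAGUGGAgcugcuguuacuuc
miR-194-2-3p: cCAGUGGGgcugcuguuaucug

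The third set holds other miRNAs with large differences. These are miR-34a-5p (chromosome 4, 150068473 to 150068494, plus strand), miR-146a-5p (chromosome 11, 43374435 to 43374456, minus strand), miR-7b-5p (chromosome 17, 56243017 to 56243040, plus strand) and miR-10a-5p (chromosome 11, 96317186 to 96317208, plus strand), none of them inside an annotated host gene. miR-7a-1-5p (chromosome 13, 58392841 to 58392863, minus strand, in an intron of Hnrnpk) and miR-10b-5p (chromosome 2, 74726074 to 74726096, plus strand, in introns of Hoxd3 and Hoxd4) are shown because they carry the seeds of miR-7b-5p and miR-10a-5p.
miR-34a-5p: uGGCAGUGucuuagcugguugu
miR-146a-5p: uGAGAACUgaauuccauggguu
miR-7b-5p: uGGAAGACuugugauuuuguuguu
miR-7a-1-5p: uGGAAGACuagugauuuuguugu
miR-10a-5p: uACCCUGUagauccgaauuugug
miR-10b-5p: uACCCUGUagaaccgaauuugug

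Values are reads divided by a size factor of the library, as deposited. Paneth libraries held 2575073 to 3862826 reads and listed 569 to 743 entries, and goblet libraries held 689763 to 1636615 reads and listed 314 to 386. The table lists nothing under 10 reads, and 10 reads are worth 7.03 to 9.39 in Paneth libraries and 30.998 to 63.5 in goblet libraries. A 0 in a goblet library can therefore hide a level that a Paneth library lists. To give both groups the same lowest value, every value under 100 was raised to 100, called the floor below, before log2 was taken, so the log2 fold change of an entry near the floor is set in part by the floor. Libraries at the floor also add no spread, so the SE and p of such an entry can be too small. The sum of all values was 2093273 to 2864260 in Paneth libraries and 4379781 to 6156033 in goblet libraries. Pearson correlations of the floored log2 values were 0.86 to 0.97 among Paneth libraries, 0.86 to 0.92 among goblet libraries and 0.54 to 0.79 between the groups, over the 473 entries tested. By their labels, Paneth 5 and 6 have the sample-name format of the goblet libraries, while Paneth 1 to 4 carry a lane, L006, and another format. What the label format stands for is not stated, and in Paneth 1 to 4 it cannot be told apart from the population. Values with Paneth 5 and 6 alone are given where they end a call or move a value by over 1.5 times.

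Paneth libraries had more miR-152-3p and miR-148a-3p, which share a seed, and more of miR-34a-5p, miR-146a-5p and miR-29. They also had more of 7 entries of the clusters around miR-17 and miR-92, and of 5 with Paneth 5 and 6 alone. They had less miR-215-5p and miR-194-1, less miR-7b-5p and miR-10a-5p, and less of the entries miR-5105, miR-5109 and miR-5115. The question is which miRNAs differ between these secretory lineages. An entry was called at an adjusted p under 0.05 and a log2 fold change of at least 1 in size, in limma with Benjamini-Hochberg adjustment over the 473 entries, and every fold change below is Paneth minus goblet on the floored log2 scale. Of the 473 entries, 136 were called (28.8%), 55 higher (11.6%) and 81 lower (17.1%) in Paneth libraries. In 99 of the 473 all 10 libraries were under the floor, so their fold change was fixed at 0 and no call was possible. They stay in the shares and medians given here. A fit on the 349 entries that reached the floor in at least 2 of the 10 libraries called 16.3% higher and 23.2% lower. Among the 229 entries that name a miRNA as annotated, 37 were higher (16.2%) and 24 lower (10.5%). The groups did not overlap in 47 of the 229 with Paneth libraries above (20.5%) and in 27 with Paneth libraries below (11.8%). The other 244 carry an offset of whole bases in their name, read as a shifted end of the miRNA, and are called isomiRs here. Of these, 18 were higher (7.38%) and 57 lower (23.4%), and 50 of the 57 belong to miR-5102, miR-5105, miR-5109 and miR-5115. The median fold change was 0.05 over the 229 annotated entries. The direction of the count depends on the scaling, since rescaling every library to a common total called 26.8% of tested entries higher and 12.7% lower. It moved the median fold change over all tested entries to 0.19, against 0 on the deposited scale. With Paneth 5 and 6 alone as the Paneth group, 33 were higher and 68 lower, and 31 and 67 of these were also called with all 6.

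**Figure D1:**
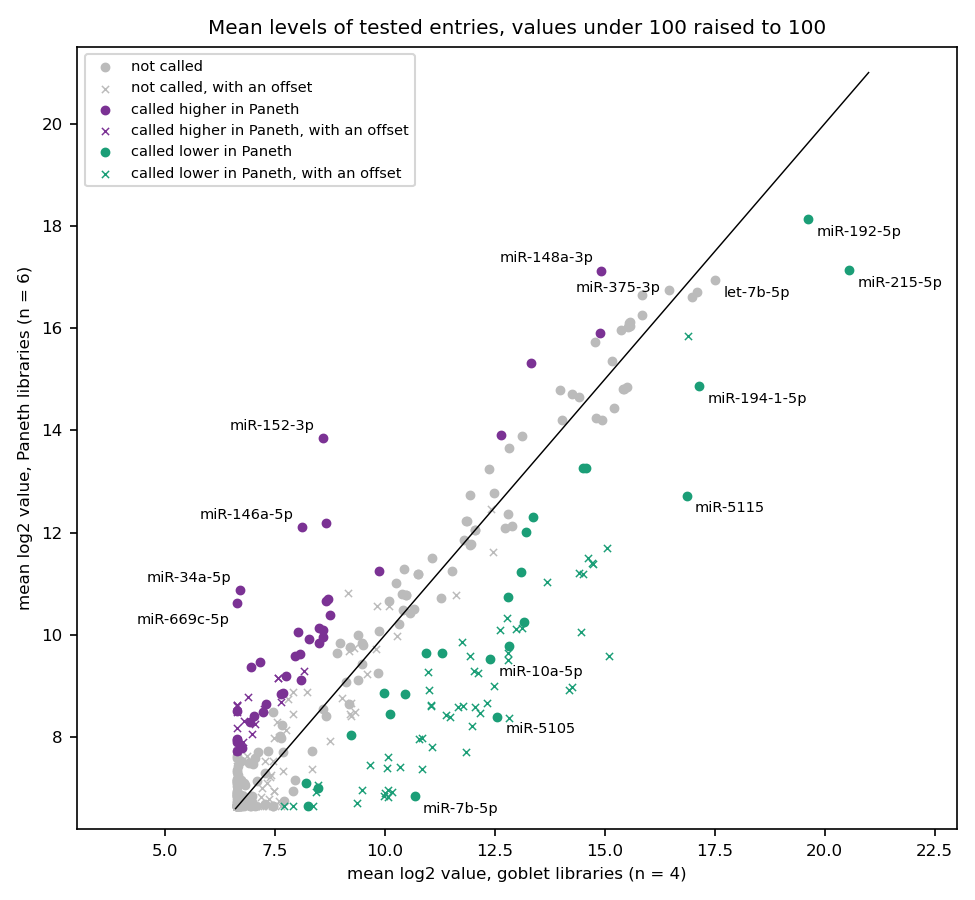
Mean log2 value in Paneth libraries (vertical, n = 6) against goblet libraries (horizontal, n = 4) for the 473 tested entries, with values under 100 raised to 100; crosses are entries with an offset and the line marks equal levels. The 55 entries called higher (purple) lie above the line, with miR-152-3p farthest from it, and the 81 called lower (green) lie below it, with many crosses.

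miR-152-3p had the largest rise. It was at 9864 to 21332 in Paneth libraries (median 14639), against 470.1, 272, 216.99 and 794 in the goblet libraries. The lowest Paneth library lay above the highest goblet library by an order of magnitude. The fold change was 5.26 (SE 0.41, adjusted p 1.76e-10), or 38.3-fold, and with Paneth 5 and 6 alone it was 4.87. miR-148a-3p, the second most abundant entry of Paneth libraries, was at 65279.8 to 241935 there (median 159504), against 35474, 20979, 31684 and 39381 in goblet libraries. Again the groups did not overlap, and it made up 6.99% of the Paneth total and 0.712% of the goblet total at the median. Its fold change was 2.20 (SE 0.28, adjusted p 5.05e-07) with all 6 Paneth libraries and 1.34 with Paneth 5 and 6. miR-148b-3p, the third of that seed, was at 1398 to 3565 in Paneth libraries (median 1919.7) and at 1396, 1166, 1252 and 1105 in goblet libraries, a fold change of 0.76 that was not called. Of the 5 tested members of the family 3 were higher and none lower, with a median fold change of 1.04. Over all annotated entries 16.2% were higher and 10.5% lower, with a median of 0.05. The third member called, miR-148a-5p, the strand opposite miR-148a-3p, overlapped between the groups, and its call was lost without any 1 of Paneth 2, Paneth 5, Goblet 2 or Goblet 3.

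In the other populations of the series, miR-152-3p had means of 1134 in Lgr5 High (n = 2), 616 in tuft (n = 3) and 434 in CD24Low cells (n = 4). In Sox9 Low, Sox9 Negative and Sox9 High cells (n = 4 each) the means were 186, 58.7 and 27.7. The Paneth mean was 15430.5 ± 5016 (SD, n = 6), and the highest library outside Paneth cells, from Lgr5 High cells, was at 1519. miR-148a-3p likewise had its highest mean in Paneth cells, at 159565 ± 75353 (SD, n = 6), followed by Sox9 Low cells at 36788 ± 1854 and goblet cells at 31879 ± 7917 (SD, n = 4 each).

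miR-34a-5p, a target of the tumour suppressor p53, was at 478 to 4175 in Paneth libraries (median 2457), against 0, 117, 68.2 and 0 in goblet libraries. Every Paneth library lay above every goblet library, and only Goblet 2 exceeded the floor. The fold change was 4.18 (SE 0.44, adjusted p 2.82e-08), and 2.82 with Paneth 5 and 6, which held the lowest Paneth values. The related miR-34c-5p was at 147 to 404 in Paneth libraries and listed at 0 in the 4 goblet libraries. At the floor its fold change was 1.32 (adjusted p 1.83e-06), and with Paneth 5 and 6 alone it was 0.88 and not called. Outside Paneth cells, the highest mean of miR-34a-5p was 565 ± 212.3 (SD, n = 4), in Sox9 Negative cells.

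miR-146a-5p, a miRNA induced by NF-κB that dampens innate immune signalling, was at 2311 to 6670.5 in Paneth libraries (median 5152), against 304, 527, 112 and 317 in goblet libraries. The groups lay apart, with a fold change of 4.01 (SE 0.49, adjusted p 2.35e-07). miR-146b-5p, which has the same seed, did not follow it, at 397 to 1023 in Paneth libraries and 964, 761, 799.8 and 1181 in goblet libraries (fold change -0.59, not called). miR-146a is also abundant in leukocytes, so the other leukocyte miRNAs of the table (miR-142, miR-150, miR-155 and miR-223) were summed by library. The sum was 2694 in Paneth 1 and 37.6 to 136 in the other 5 Paneth libraries, against 0, 66.9, 55.8 and 0 in goblet libraries. Paneth 1 thus stood apart, with miR-142-5p at 1614 and miR-155-5p at 676, while its miR-146a-5p of 6550 lay below that of Paneth 5, at 6670.5. In Paneth 4, 5 and 6 miR-142-5p was listed at 0, and miR-146a-5p was at 4517, 6670.5 and 5786. The part of leukocytes in the miR-146a-5p values was not tested. In populations other than Paneth and goblet, the mean of miR-146a-5p was 508 in tuft to 3265 in Sox9 Low cells.

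The entry miR-29abc-3p, which pools the miR-29 genes known to repress collagens, was at 1853 to 9886 in Paneth libraries (median 4856) and at 342, 376, 487 and 438 in goblet libraries. Its fold change was 3.52 (SE 0.32, adjusted p 1.99e-09), and 2.54 with Paneth 5 and 6. miR-669c-5p was at 1236 to 2516 in Paneth libraries (median 1424) and at 52.2, 0, 43.4 and 0 in goblet libraries. All 4 goblet values lay under the floor, against which the fold change was 3.98 (SE 0.30, adjusted p 1.39e-10). All CD24Low, Sox9 High, Sox9 Low and Sox9 Negative values were under it as well and added no spread, which makes the SE and p small. Lgr5 High cells also held miR-669c-5p, at 662 and 1714 in their 2 libraries. miR-101a-3p, a repressor of the Polycomb subunit Ezh2, was at 1072 to 2661 in Paneth libraries (median 1692) and at 347, 493, 533 and 298 in goblet libraries (fold change 1.99, SE 0.32, adjusted p 9.98e-06). miR-101b-3p was higher as well, by 1.43, and was not called with Paneth 5 and 6.

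**Figure D2:**
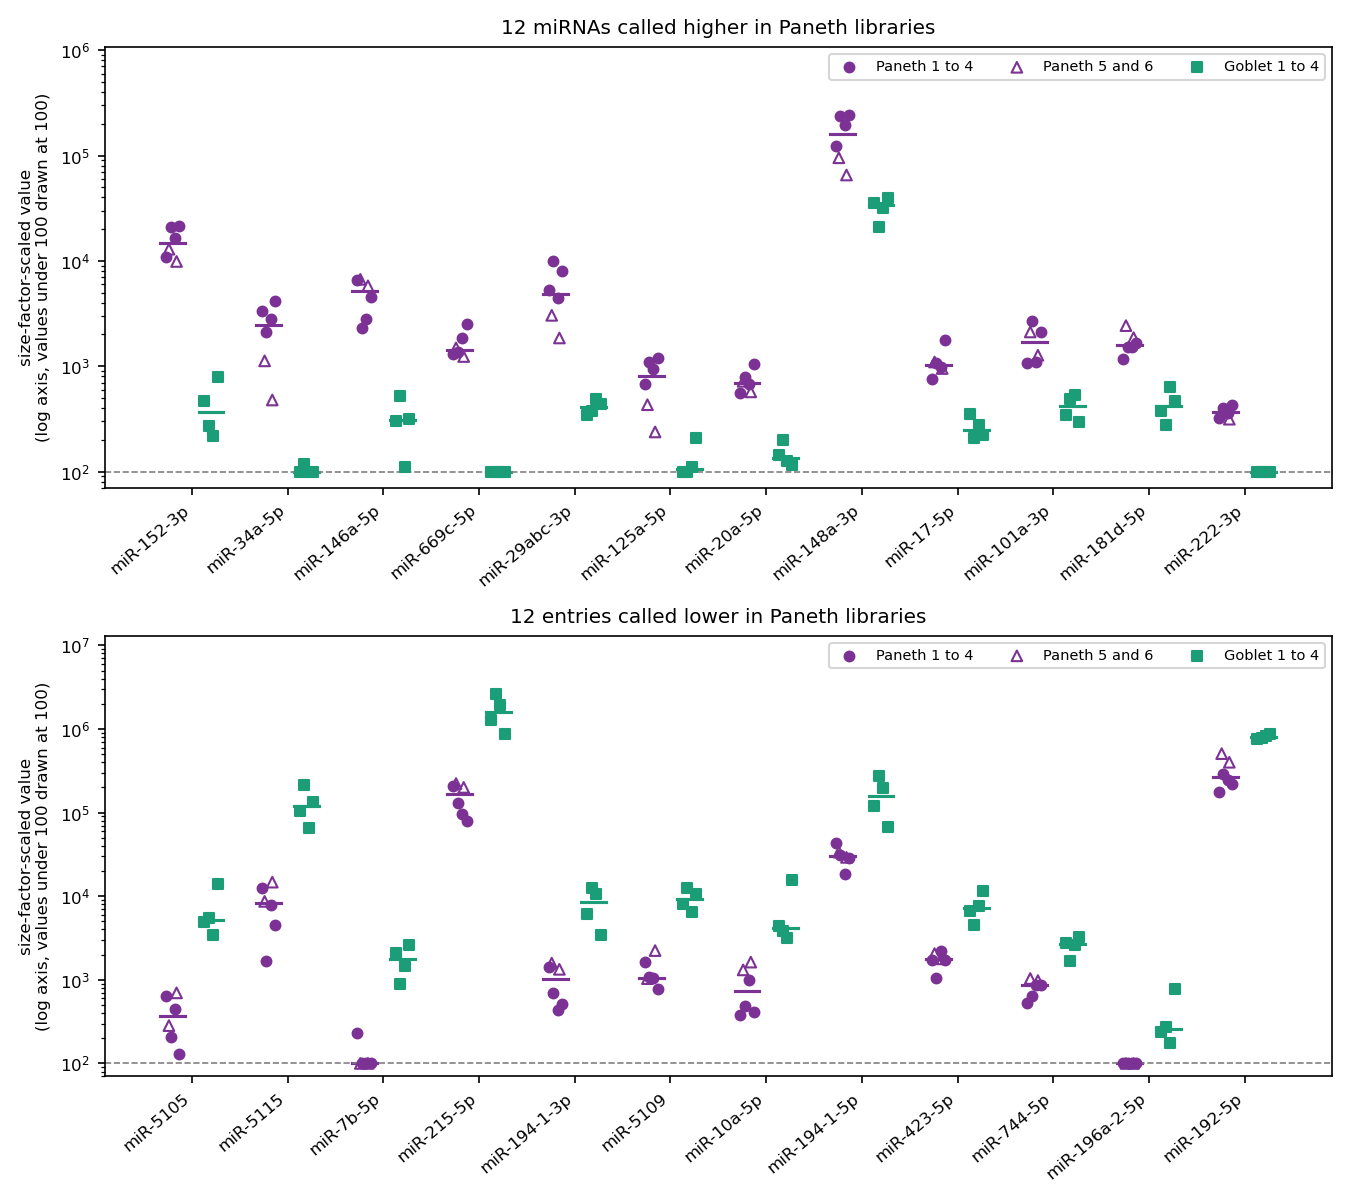
Values by library on a log axis for the 12 miRNAs called higher with the largest rise (top) and the 12 entries called lower with the largest fall (bottom), among annotated entries whose groups do not overlap; Paneth libraries stand left of goblet libraries, triangles are Paneth 5 and 6, bars are medians and the dashed line is the floor of 100. miR-152-3p and miR-34a-5p show wide gaps above the goblet squares, and miR-7b-5p and miR-196a-2-5p lie at the floor in nearly all Paneth libraries.

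The miR-17, miR-92 and miR-106 clusters, a group of paralogous clusters known for driving proliferation, had 7 of 18 tested entries higher and none lower, with a median fold change of 0.68, against 16.2% higher, 10.5% lower and a median of 0.05 over all annotated entries. With Paneth 5 and 6 alone 5 of the 18 were higher. Copies of 1 mature sequence count separately here. miR-20a-5p was at 561 to 1059.8 in Paneth libraries (median 698), against 142.4, 201, 127.1 and 114 in goblet libraries, and miR-17-5p at 762 to 1759 (median 1034), against 351, 209, 279 and 222.2. Neither overlapped between the groups, and the fold changes were 2.32 (SE 0.37, adjusted p 1.11e-05) and 2.04 (SE 0.50, adjusted p 0.00152). Sox9 Negative cells had the highest means of both, 1988 and 2252, against 730 and 1106 in Paneth cells. miR-19b-1-3p and miR-19b-2-3p, which are copies of 1 sequence, rose by 1.21 and 1.18, miR-25-3p by 1.28 and miR-106b-5p by 1.08, and the last was not called without Paneth 4, with Paneth 5 and 6 alone or with a floor of 200 (0.18). miR-93-5p of the same seed as miR-17-5p was at 4840.0 to 8505 in Paneth libraries and 4288, 3410.1, 3763 and 4191 in goblet libraries, a fold change of 0.81 that was not called. In miR-92a-1-3p the Paneth libraries split by label format. It was called higher by 1.99, but Paneth 1 to 4 were at 68523 to 101613 and Paneth 5 and 6 at 11343 and 7985, against 10807, 8851, 9954 and 11556 in goblet libraries, and with Paneth 5 and 6 alone the fold change was -0.11. miR-92a-2-3p, a copy of the same mature sequence on chromosome X, was at 821 to 2336 in Paneth libraries and 1178, 1220.3, 1497 and 1549 in goblet libraries, a fold change of 0.09 that was not called, and how reads were divided between the copies is uncertain.

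miR-221-3p and miR-222-3p, a pair known to repress the cell cycle inhibitor p27, share a seed and a locus on chromosome X and were both higher, by 1.49 and 1.86. miR-222-3p was at 314 to 427 in Paneth libraries (median 364), against 66.5, 46.0, 55.8 and 69.8 in goblet libraries, all under the floor, and with a floor of 200 its fold change was 0.86 and not called. The highest mean of miR-222-3p was 795, in Sox9 Low cells, against 365 in Paneth cells. In the miR-181 family, known from lymphocyte development, miR-181d-5p was at 1180.5 to 2426 in Paneth libraries (median 1598) and at 375.1, 276, 639 and 469.9 in goblet libraries, a fold change of 1.98 (SE 0.25, adjusted p 5.05e-07). Its Paneth mean of 1699 lay under the means of all other populations except goblet, which were 1712 to 5522. Both copies of miR-181b-5p rose by 1.64. miR-181a-1-5p, with the same seed, was at 3246 to 4904 in Paneth libraries and 4046, 3807, 3893 and 5334 in goblet libraries, a fold change of 0.01. In all, 3 of 8 tested entries of this family were higher, the copies of miR-181b-5p counted separately, with a median of 0.16. Over all annotated entries 16.2% were higher, with a median of 0.05. miR-125a-5p, of the family of the worm timing miRNA lin-4, was at 238 to 1196 in Paneth libraries (median 815) and 61.7, 0, 112 and 209.5 in goblet libraries (fold change 2.43, and 1.37 with Paneth 5 and 6). Its cluster neighbour let-7e-5p rose by 1.38, and miR-99b-5p of the same cluster had a fold change of 0.41 that was not called.

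miR-215-5p was the most abundant entry of goblet libraries and far lower in Paneth libraries. It was at 79447 to 222625 in Paneth libraries (median 164716), against 1265255, 2628707, 1941436 and 867806 in goblet libraries. At the median it made up 6.42% of the Paneth total and 33.4% of the goblet total, and the groups lay well apart. The fold change was -3.41 (SE 0.29, adjusted p 5.43e-10), and -2.87 with Paneth 5 and 6. In the other populations the means of miR-215-5p ran from 120648 in Sox9 High to 3003221 in Sox9 Negative cells. Those of Paneth and goblet cells were 155590 and 1675801. miR-192-5p, the most abundant entry of Paneth libraries, fell less. It was at 177324 to 507267 in Paneth libraries (median 268381), against 752037, 783269, 816247 and 874797 in goblet libraries, with no overlap. Its fold change was -1.49 (SE 0.21, adjusted p 1.6e-06), and it was not called with Paneth 5 and 6 (-0.84) or at a common library total (-0.50).

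The ratio of miR-215-5p to miR-192-5p within a library does not depend on the scaling. It was 0.362 to 1.16 in Paneth libraries (median 0.443), against 1.68, 3.36, 2.38 and 0.992 in goblet libraries. The ranges overlapped, since the highest Paneth library, Paneth 1, lay above the lowest goblet library, Goblet 4. The mean log2 ratio was -0.99 ± 0.62 (SD, n = 6) in Paneth libraries and 0.93 ± 0.75 (SD, n = 4) in goblet libraries. The difference of -1.93 had p = 0.00952 in a two-sided exact permutation test over libraries, where the smallest p is 0.00476. With Paneth 5 and 6 alone it was -2.03 (exact permutation p = 0.0667, in a design too small to reach 0.05).

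By locus, the 4 entries of chromosome 1 were all lower in Paneth libraries, and 1 of the 4 entries of chromosome 19 was. miR-194-1-3p, the strand that tells the miR-194 genes apart, was at 436 to 1582 in Paneth libraries (median 1019), against 6120.5, 12495, 10775 and 3422 in goblet libraries (fold change -3.05, SE 0.40, adjusted p 7.03e-07, and -2.33 with Paneth 5 and 6). miR-194-2-3p from chromosome 19 was at 735 to 1537 in Paneth libraries (median 1207) and at 1462, 1438, 1875 and 654 in goblet libraries, a fold change of -0.11 that was not called. The first separated the groups and the second did not. Within a library, the ratio of miR-194-1-3p to miR-194-2-3p was 0.283 to 1.82 in Paneth libraries, against 4.19, 8.69, 5.75 and 5.23 in goblet libraries. miR-194-1-5p was at 18487 to 43780.5 in Paneth libraries (median 30115), against 121579, 274070.0, 196540.0 and 66709.8 in goblet libraries (fold change -2.27). miR-194-2-5p had a fold change of -0.73 and was not called, and since its mature sequence is the same, how reads were divided between these 5p entries is uncertain. miR-215-3p had a fold change of -1.85, with the highest Paneth library at 4015 above the lowest goblet library at 3302. At a common library total, 3 of the 8 entries of the family were called lower, against 5 on the deposited scale.

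**Figure D3:**
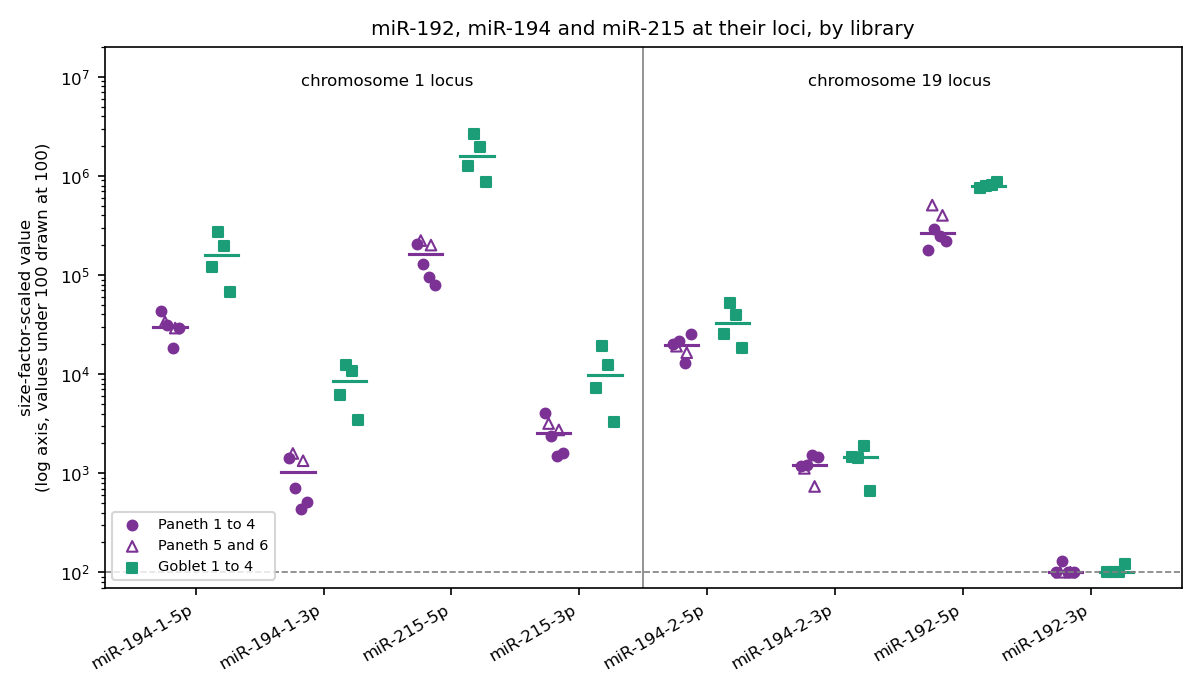
Values by library on a log axis for the 4 entries of the chromosome 1 locus (left) and the 4 of the chromosome 19 locus (right), with Paneth libraries left of goblet libraries, triangles for Paneth 5 and 6, bars at medians and the floor of 100 dashed. miR-194-1-3p separates the groups by a fold change of -3.05, and miR-194-2-3p overlaps at -0.11.

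miR-7b-5p, an endocrine and neural miRNA, was nearly absent from Paneth libraries. It was at 20.4 to 228 there (median 48.4), against 2089, 898, 1466 and 2597 in goblet libraries. Only Paneth 1 exceeded the floor, and no Paneth library came near a goblet library. The fold change was -3.83 (SE 0.40, adjusted p 2.06e-08). The goblet mean of 1763 ± 739 (SD, n = 4) was in turn far under the means of 34870.0 in Sox9 High, 27799 in Sox9 Low and 10918 in CD24Low cells, and tuft libraries listed it at 0. miR-7a-1-5p, which has the same seed, had a fold change of -0.76 that was not called, at 3981 to 5509 in Paneth libraries and 10954, 5675, 7632 and 7061 in goblet libraries. The endocrine miR-375-3p, which controls hormone secretion in pancreatic islets, was abundant in both groups, at 75529 to 143120.0 in Paneth libraries (median 114358) and 112837, 50257, 72608 and 156863 in goblet libraries. The goblet range enclosed the Paneth range, and the fold change of 0.30 was not called, while at a common library total it was 1.28 and called. Of the 17 tested endocrine and neural entries 2 were higher, both copies of miR-128-3p (1.34 and 1.05), and 1 was lower, with a median of 0. Of all annotated entries 16.2% were higher and 10.5% lower. Neither copy was called with a floor of 200 or with no floor. The call at 1.05 was also lost without Paneth 4 or 5, with the replicate block and with Paneth 1 to 4 alone.

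miR-10a-5p and miR-196a-2-5p, whose genes lie in Hox gene clusters, were both lower in Paneth libraries. miR-10a-5p was at 376 to 1627 there (median 743), against 4454, 3853, 3125 and 15442 in goblet libraries (fold change -2.87, SE 0.45, adjusted p 9.22e-06, and -1.88 with Paneth 5 and 6). miR-196a-2-5p (chromosome 15, 102973365 to 102973386, plus strand, in an intron of Hoxc5) was listed at 0 in the 6 Paneth libraries and at 237, 276, 174 and 775 in goblet libraries. Its fold change of -1.62 is measured against the floor, and with a floor of 200 it was -0.67 and not called. The copy miR-196a-1-5p (chromosome 11) has the same mature sequence, so the division of reads between them is uncertain. It was also listed at 0 in the Paneth libraries and at 142.4, 150.4, 89.9 and 432 in goblet libraries, a fold change of -0.80 at the floor that was not called. In the other populations the highest mean of miR-196a-2-5p was 99.2, in tuft cells. miR-10b-5p was at 109.6 to 731 in Paneth libraries (median 406) and 1007, 635, 936 and 2502 in goblet libraries. The groups overlapped, and its fold change of -1.66 was -0.63 and not called with Paneth 5 and 6. At a common library total miR-10b-5p was not called either. miR-10b was named beside miR-10a after its values were seen.

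Among the other falls, miR-423-5p was at 1064 to 2196 in Paneth libraries (median 1756) and 6591, 4522, 7694 and 11544 in goblet libraries (fold change -2.06, SE 0.33, adjusted p 1.13e-05). miR-744-5p was at 530.1 to 1037 in Paneth libraries and 2744, 1701, 2641 and 3251 in goblet libraries (fold change -1.66), and was not called with Paneth 5 and 6 or at a common library total. The groups were separate in both. Of the inflammation and injury list, miR-31-5p, a miRNA induced in damaged epithelium, was lower, at 8237 to 11290.0 in Paneth libraries and 22378, 40248, 29535 and 13506 in goblet libraries (fold change -1.31, and not called at a common library total). miR-21-5p, the most abundant of that list, was at 58206 to 154810.0 in Paneth libraries (median 123788) and 59049, 68018, 59319 and 50067 in goblet libraries, a fold change of 0.81 that was not called. Of the 9 tested entries of the list 1 was higher, miR-146a-5p, and 1 lower, against 16.2% and 10.5% of all annotated entries.

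The remaining calls among annotated entries were of smaller size and are given because they complete the count, not by the rule for named miRNAs. Those higher in Paneth libraries were miR-378-5p (1.39), miR-1839-5p (1.35), miR-574-3p (1.34), miR-676-3p (1.30), miR-467c-5p (1.27) and miR-1843-5p (1.25). Without Goblet 4 miR-1839-5p was at 0.74 and not called. With Paneth 5 and 6 alone miR-1843-5p (1.21), miR-467c-5p (0.52) and miR-676-3p (0.19) were not called, and the 4 goblet libraries listed miR-467c-5p and miR-676-3p at 0. Those lower were miR-5117-5p (-1.60), miR-139-3p (-1.47), miR-22-3p (-1.26), miR-151-3p (-1.19), miR-574-5p (-1.18), miR-3096b-5p (-1.10), miR-1981-5p (-1.10) and miR-320-3p (-1.06). None of these 8 was called at a common library total. With Paneth 5 and 6 alone 6 of these 8 were not called, namely miR-139-3p (-1.19), miR-3096b-5p (-0.92), miR-574-5p (-0.86), miR-320-3p (-0.79), miR-1981-5p (-0.78) and miR-151-3p (-0.70), while miR-22-3p was at -1.88. With Paneth 1 to 4 alone miR-22-3p was at -0.95 and not called, and its call was also lost with median-of-ratios size factors. The calls of miR-574-5p, miR-3096b-5p, miR-1981-5p and miR-320-3p were also lost in at least 1 fit with a library left out.

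The entries miR-5105, miR-5115 and miR-5109 had 3 of the 6 largest falls among annotated entries. miR-5115 was at 1691 to 14729 in Paneth libraries (median 8261), against 105497, 213958, 65187 and 135534 in goblet libraries. miR-5105 was at 129.3 to 698 in Paneth libraries (median 365), against 4938, 5475, 3404 and 13957. All groups were separate, and the fold changes were -4.13 for miR-5115 (SE 0.86, adjusted p 0.0003, and -3.39 with Paneth 5 and 6), -4.15 for miR-5105 (SE 0.53) and -2.90 for miR-5109 (SE 0.41). Together with miR-5102 these entries have 56 tested isomiRs, of which 50 were called lower and none higher. miR-5105, miR-5109 and miR-5115 had no match in RefSeq, so no sequence or position is printed for them. Some of their offset forms exceeded the form without an offset. For miR-5105 with an offset of -8 the mean log2 ratio was 1.19 in Paneth and 2.54 in goblet libraries. Whether the reads of these entries come from miRNAs was not tested. In the other populations miR-5115 had means of 1211 to 11313, so goblet cells at 130044 ± 62931 (SD, n = 4) had the highest mean, and Paneth cells at 8329 ± 4849 (SD, n = 6) lay within the range of the rest.

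**Figure D4:**
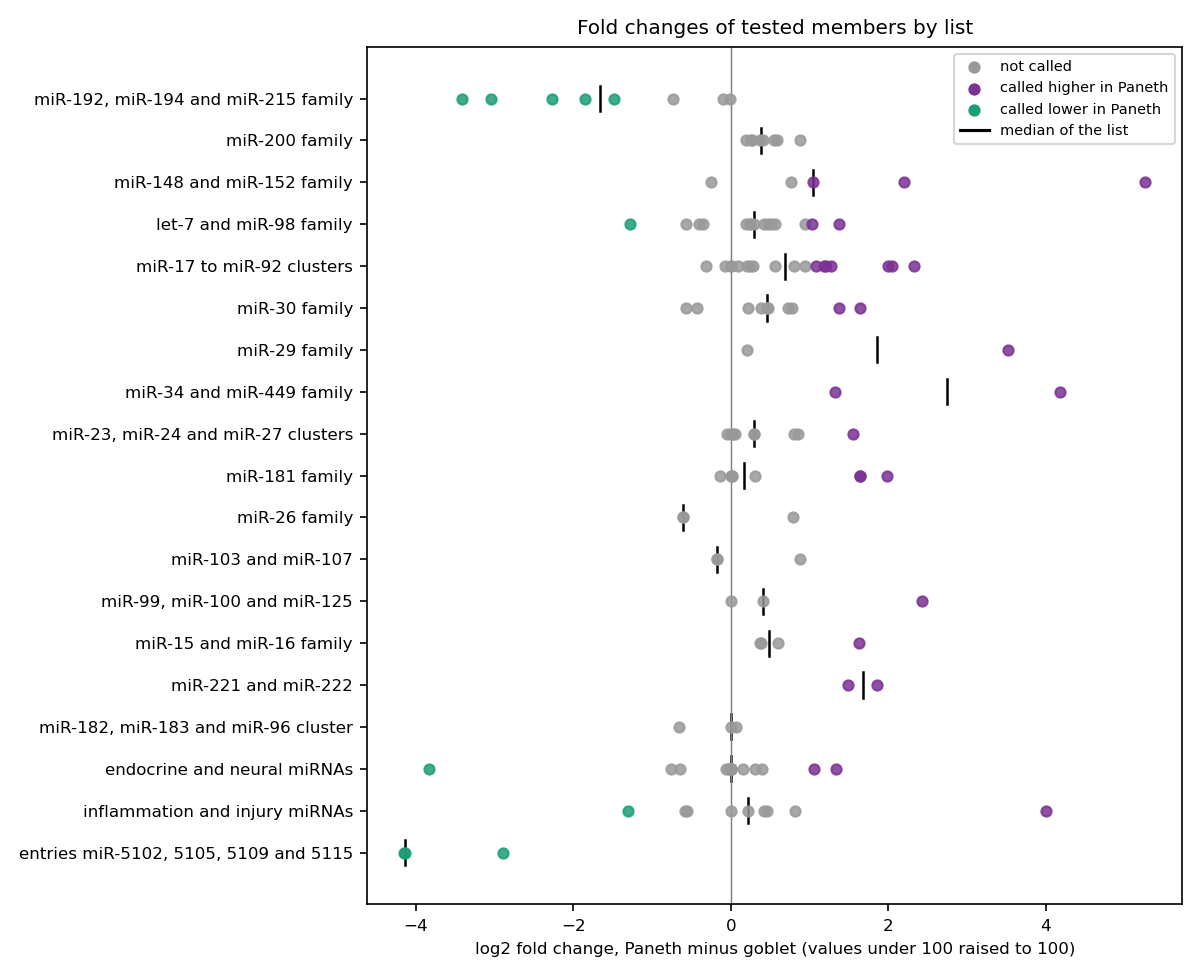
Log2 fold change, Paneth minus goblet, of each tested annotated entry by family or list, with values under 100 raised to 100; purple is called higher, green called lower, grey not called, and the bar is the median of the list. The family with miR-215-5p has a median of -1.67, the miR-148 and miR-152 family one of 1.04, and no member of the miR-200 family was called.

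Several abundant families showed few calls or none. In the miR-200 family, which maintains the epithelial state, none of 8 entries was called, with fold changes of 0.19 to 0.88 and a median of 0.39, although 7 were called higher at a common library total. miR-200c-3p, for example, was at 51230.5 to 80357 in Paneth libraries and 51196, 51782, 46107 and 42105 in goblet libraries. let-7b-5p and let-7c-2-5p, members of a family that rises with differentiation, were among the most abundant entries of both groups, with fold changes of -0.57 and -0.41 that were not called and changed sign at a common library total (0.41 and 0.58). Among the 15 tested let-7 and miR-98 entries, let-7e-5p and let-7g-5p were higher and let-7d-3p lower, with a median of 0.29, and the call of let-7g-5p was lost without any 1 of Paneth 4, 5 or 6 or Goblet 4. That of let-7d-3p (-1.28) was lost with Paneth 5 and 6 alone (-1.13), at a common library total and with median-of-ratios size factors. Against 16.2% of all annotated entries, the miR-30 family had 2 of 11 entries higher (miR-30b-5p, and miR-30c-2-3p, which was at 0.80 and not called with Paneth 5 and 6), the miR-23, miR-24 and miR-27 clusters 1 of 9 (miR-23b-3p), and the miR-15 and miR-16 family 1 of 4 (miR-15a-5p, not called with Paneth 5 and 6). None of the tested entries of miR-26 (3), miR-103 and miR-107 (3) or of the miR-182, miR-183 and miR-96 cluster (3) was called.

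Markers of other cell types were low in both groups, apart from miR-146, miR-375, miR-7 and miR-10b, and apart from miR-142-5p and miR-155-5p in Paneth 1. Of 8 tested stromal and muscle entries, miR-10b-5p was called lower and none higher, against 10.5% and 16.2% of all annotated entries. The defining miR-145-5p was at 0 in all 10 libraries, and miR-143-3p was at 27.4 to 321.96 in Paneth libraries and 176, 100.3, 133.3 and 241 in goblet libraries. The summed level of the stromal list was 334 to 1147 in Paneth libraries and 953 to 2927 in goblet libraries, and that of the leukocyte list 2903 to 9641 against 967 to 1499, which is mostly miR-146. The endothelial miR-126 and the pancreatic miR-216 and miR-217 were at 0 in all 10 libraries. The red blood cell miR-486-5p reached 50.4 in Paneth and 114 in goblet libraries, and the liver miR-122-5p 21.2 and 102. The part of other cells in the results was not tested. In bulk libraries, fewer cells of a type and less RNA per cell cannot be told apart.

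Annotated hairpins that lie within 10 kb of each other on 1 strand formed 23 clusters with at least 2 tested hairpins. A call fell in 12 of them, and no cluster held calls in both directions. Of the 5 with at least 2 calls, all 4 entries of the chromosome 1 locus described above were lower. The others were higher, with 4 of 8 entries in the miR-17 cluster, 2 of 5 in the cluster of miR-25, miR-93 and miR-106b, 2 of 4 in that of miR-99b, let-7e and miR-125a, and both entries of miR-221 and miR-222. Entries of 1 cluster share a precursor and are not independent. Clusters cover the entries that matched RefSeq alone, among them 46 of the 61 called. The call of miR-23b-3p, which had no match, is therefore not counted in the cluster of miR-23b, miR-27b and miR-24-1.

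The 2 strands of a hairpin changed relative to each other in 7 of 15 hairpins (46.7%), as the log2 ratio of 5p to 3p within a library, which needs no scaling. Both strands had to reach 100 in all 10 libraries. For miR-574 the ratio was -2.14 to -1.18 in Paneth libraries (median -2.01), against 1.05, 1.14, -0.05 and 0.74 in goblet libraries, a difference of -2.51 (SE 0.29, adjusted p 5.7e-05). Thus miR-574-3p was the more abundant strand in each Paneth library and miR-574-5p in 3 of the 4 goblet libraries. For miR-423 the ratio was -1.86 to 0.60 in Paneth libraries, against 1.80, 1.43, 1.79 and 1.92 in goblet libraries, a difference of -2.50 that was -1.23 with Paneth 5 and 6. miR-215 moved the same way (-1.57), with 5.63 to 6.196 in Paneth libraries and 7.46, 7.09, 7.28 and 8.04 in goblet libraries.

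Shifts toward the 5p strand in Paneth libraries were called for miR-151 (2.04), let-7d (1.47) and miR-30b (1.26). For miR-151 the ratio was -1.63 to 0.13 in Paneth libraries and -2.85, -2.25, -2.71 and -3.22 in goblet libraries, and for let-7d it was 5.08 to 6.13 in Paneth libraries and 4.67, 4.71, 4.11 and 3.40 in goblet libraries. Both separated the groups, while miR-30b overlapped. With Paneth 5 and 6 the difference was 1.17 for miR-151 and 0.97 for miR-30b, which is under the threshold of 1 for a call. miR-148a was called at -1.16, yet with Paneth 5 and 6 the difference was -0.01, so the call rests on Paneth 1 to 4.

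**Figure D5:**
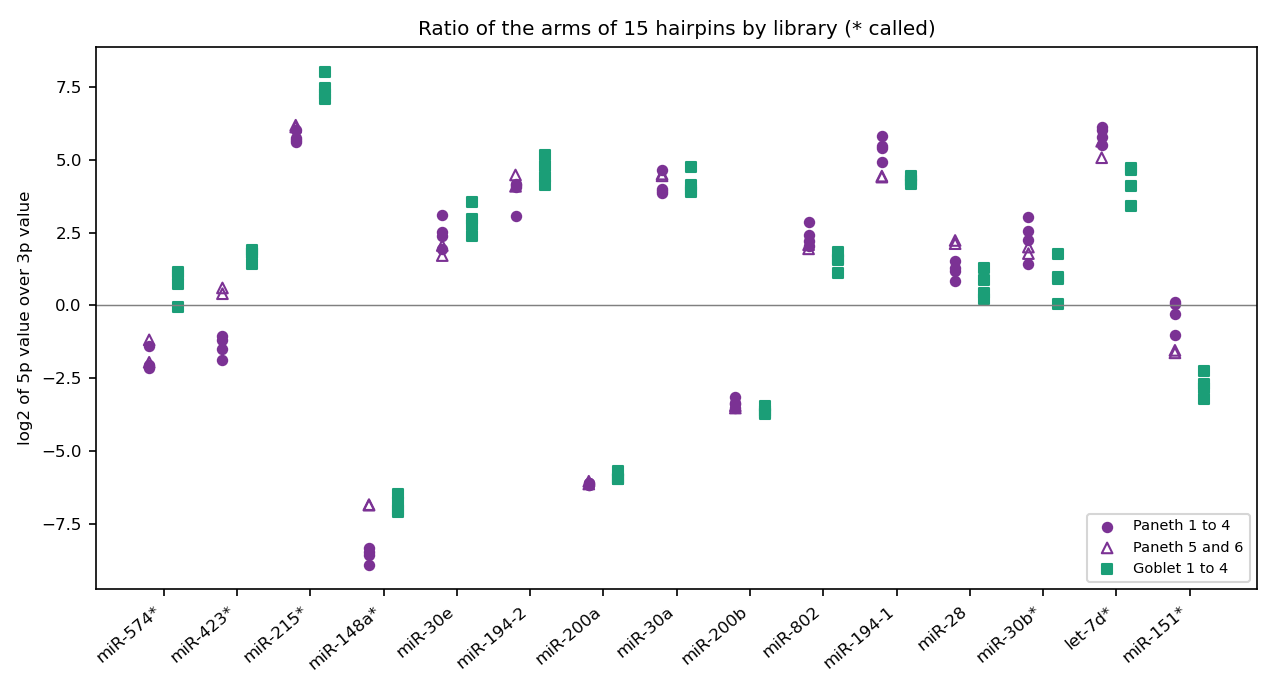
Log2 of the 5p value over the 3p value within each library for the 15 hairpins tested, ordered by the difference between the groups, with Paneth libraries (purple, triangles for Paneth 5 and 6) left of goblet libraries (green squares) and a star at the 7 hairpins called. miR-574 and miR-151 separate the groups with differences of -2.51 and 2.04, and for miR-148a the triangles lie at the goblet level.

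Few isomiRs changed relative to the annotated form of their own miRNA. Of 63 with both forms at 100 or more in all 10 libraries, 10 were called (15.9%), 6 higher (9.52%) and 4 lower (6.35%) in Paneth libraries. Of these, 8 belong to miR-5105 and miR-5109, which also hold many of the 63 tested. The remaining calls were the form of miR-141-3p with an offset of -1 and the form of miR-192-5p with an offset of 2. The first had a log2 ratio of -6.88 to -6.43 in Paneth libraries and -5.61, -5.36, -5.63 and -6.01 in goblet libraries, a difference of -1.08 (SE 0.15, adjusted p 0.000378) without overlap. The second had a difference of 1.23 (adjusted p 0.0483) with overlapping groups, and 0.01 with Paneth 5 and 6. Without Paneth 6 the number of calls was 16. None of the 26 isomiRs with an offset of 1 was called, with a median difference of 0.12.

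The Paneth libraries also differed among themselves. Paneth 5 and 6 correlated at 0.86 to 0.92 with Paneth 1 to 4, which correlated at 0.91 to 0.97 with each other. Set against Paneth 1 to 4, Paneth 5 and 6 had 3 annotated entries called higher and 13 lower. Among those lower were miR-92a-1-3p (-3.15), miR-34a-5p (-2.04), miR-125a-5p (-1.59), miR-29abc-3p (-1.47) and miR-148a-3p (-1.29), and those higher were miR-181c-5p (1.13), miR-98-5p (1.06) and miR-146b-5p (1.05). miR-152-3p had a difference of -0.58 and miR-215-5p one of 0.82, and neither was called. Of the annotated entries called against goblet libraries with all 6 Paneth libraries, 28 of 37 higher and 14 of 24 lower were also called with Paneth 5 and 6 alone.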

How the data were processed

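The deposited table holds a signal for 2670 entries, 638 of them without an offset. The authors divided read counts by 1 size factor per library, as the values show, since each listed value is a whole multiple of 1 step within 0.001 reads. Libraries were made with the TriLink CleanTag small RNA kit, per the labels. The build is mm9, per the submitters' processing notes, and the sources used here name neither aligner nor counter. A further 3 columns match no sample and were not used.

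Values under 100 were raised to 100, and the 473 entries reaching 100 in at least 2 of the 31 libraries were fitted with limma 3.58.1 in R 4.3.3 on log2 values, with means for 8 populations, an intensity trend and no covariate, so that all populations share 1 estimate of spread. In 99 of the 473 all 10 Paneth and goblet libraries were under 100. Unadjusted p was under 0.05 in 223. Ratios were fitted on the 10 libraries alone. Scripts were tested on simulated data. The members, lists and rules were chosen with earlier results of these data known. Named miRNAs are the 12 annotated entries with the largest called rise and fall and no overlap between groups, the 5 most abundant of each group, members of the lists, and called ratios. Alternatives were other floors, no floor with log2 of the value plus 1, other filters and scalings, the replicate block, parts of the Paneth libraries, and each library left out. Intervals were not computed, and 10 reads set the precision of the lowest values. Positions, sequences and host genes are from RefSeq and GENCODE vM21 on GRCm38.p6, not the build of the files, which give no coordinates used here. Single-cell files were not used.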

Additional observations from a re-analysis of the deposited data

Results flagged for a closer look

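Of 53 sets of log2 values (the named entries and the ratio of miR-215-5p to miR-192-5p, each within Paneth or goblet libraries), 5 had a library far from the rest by Dixon's ratio, and chance gives about 1 in 20. Values under 100 were raised to 100 first. A set with only 1 library above the floor therefore has a Dixon's ratio of 1 by construction. The rate of 1 in 20 does not apply to such sets, here miR-34a-5p and miR-7b-5p. miR-34a-5p in goblet libraries was at 6.87 in Goblet 2, and the other 3 lay at the floor of 6.64. miR-125a-5p in goblet libraries was highest in Goblet 4, at 7.71. miR-7b-5p in Paneth libraries was at 7.84 in Paneth 1, with the other 5 at the floor. miR-423-5p in Paneth libraries was lowest in Paneth 2, at 10.06. The log2 ratio of miR-215-5p to miR-192-5p in Paneth libraries was highest in Paneth 1, at 0.22, against -0.997 in the next library. Paneth 1 is also the library with the highest leukocyte miRNAs, and the part of this in its other values was not tested.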

How the results depend on the processing

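Of the 37 higher and 24 lower calls among annotated entries, 32 and 20 held whichever 1 library was left out, and 17 and 9 held under every alternative in which they were tested. As a percent of tested entries, higher calls were 9.34% (34) at a floor of 200, 33.1% (350, of 40.965% or 433 called) with log2 of the value plus 1 and no floor, 26.8% at a common library total and 6.98% (33) with Paneth 5 and 6 alone, against 11.6% (55). Higher calls made up 40.4% of all calls, against 31.8%, 80.8% and 67.9% in the first 3 of these and 51.4% (75 higher, 71 lower) with median-of-ratios size factors. Annotated entries tested alone had 27.1% (62) called and 10.5% (24) lower, and 61.3% of calls higher, because isomiRs were left out. Leaving out 1 library gave 46 to 59 higher and 80 to 82 lower calls. The fold change changed sign for let-7b-5p (0.41) and let-7c-2-5p (0.58) at a common library total, and for miR-375-3p (-0.10) and miR-92a-1-3p (-0.11) with Paneth 5 and 6. The cause was not tested.

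IsomiR ratios gave 3 calls with both forms at 200 or more, 6 with Paneth 5 and 6, 17 with Paneth 1 to 4, and 9 to 16 with 1 library left out, against 10. The difference of the miR-215-5p to miR-192-5p ratio was -2.03 with Paneth 5 and 6 (exact permutation p = 0.0667) and -1.88 with Paneth 1 to 4 (exact permutation p = 0.0571). With 1 library left out it was -2.24 to -1.66.

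Replicate numbers 1 to 4 are shared by Paneth and goblet libraries. Residuals of same-numbered libraries correlated at -0.28 to -0.09, and no goblet library correlated best with the Paneth library of its number, so the numbers were not taken to pair samples. With the replicate block the 10 libraries gave 63 higher and 83 lower calls, against 54 and 81 without it, isomiR ratios gave 16 calls, and same-numbered libraries differed in the miR-215-5p to miR-192-5p ratio by -1.88 (exact sign-flip permutation p = 0.125). That is the smallest p this sign-flip test can give with 4 pairs. The planned count test on recovered reads was not run. Depth limits goblet libraries, where 10 reads are worth up to 63.5.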
